A study of Homo sapiens with 6 samples.

Results

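The genes described here encode the mitochondrial ribosomal proteins, the protein components of the ribosome that works inside mitochondria. They were taken as every gene of the deposited table whose symbol is MRPS or MRPL followed by a number and, in a few cases, a letter from A to C. Entries that shared a symbol were summed. The rule found 78 genes among 16510, from 88 of 17381 entries in the table, and 29 of them carry a small subunit symbol (MRPS) and 49 a large subunit symbol (MRPL).

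Messenger RNA was sequenced in 6 libraries from cells labelled Hep3B, a human hepatocellular carcinoma line, which the series text describes as SR, and no treatment is given. The control group has 3 libraries with a wildtype genotype. The other group has 3 libraries that the titles and series text give as STIM1 knockout, STIM1 being the calcium sensor of the endoplasmic reticulum, although their genotype entries differ, reading STIM1, STIM2 and STIM3 KO. The labels do not say whether the libraries of a group came from separate cultures or whether the knockout cells were a single clone, so p-values measure the spread between libraries, which may be technical.

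The mitochondrial ribosome translates the few messages encoded in mitochondrial DNA, all of which specify subunits of the respiratory chain and ATP synthase. Its rRNAs come from mitochondrial DNA, whereas its proteins are encoded in the nucleus, made in the cytosol and imported. Some of these proteins descend from bacterial ribosomal proteins and others are found only in mitochondrial ribosomes. Inherited defects of single components are known to lower respiratory chain activity, with liver among the tissues affected.

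Some facts of the libraries bear on each value. The table gives group means, and the whole reads behind them were worked out for each library, with 12042705 to 16398821 reads per library. Which library belongs to which sample number is not known, so in each group the letters A, B and C stand for the order of size factors, largest first. STIM1 itself went against the label. The libraries labelled knockout held more of it, at 1454, 1439 and 1422 normalized reads against 1047, 972 and 836 in control, a change of 0.60 on the log2 scale (SE 0.06, adjusted p = 8.80e-07 by limma), so the group is called the libraries labelled knockout throughout. The total over a gene holds no record of which exons were read. Of 7 hepatocyte and hepatoma markers in the table, the defining ALB and AFP were at 0 in every control library, with 1 read each in a single library labelled knockout, so the labelled cell type is not borne out by its markers. The summed level of those 7 was 216 to 261 in control and 776 to 893 in the libraries labelled knockout, nearly all of it HNF4A, which averaged 219 and 817. Of 5 blood and immune markers the sum was 22.2 to 94.4 in control and 4.76 to 11.4 in the other group. Of 3 endothelial markers it was 122 to 161 and 18.6 to 21.9, and of 4 fibroblast markers 449 to 576 and 141 to 383. Single genes weighed heavily in these sums. PECAM1 averaged 123 and 3.01, while CDH5 averaged 9.18 and 12.3. HBB reached 65.3 in control library C, and COL1A2 was 23.8, 208 and 1.19 in libraries A, B and C labelled knockout. By limma PECAM1, CD14, DCN and PDGFRB were lower at an adjusted p under 0.05, and VWF, CDH5, HBB, COL1A2 and LUM did not pass. Of the hepatocyte and hepatoma markers, HNF4A passed as higher. SERPINA1 passed as lower, at means of 7.12 in control and 0 in the libraries labelled knockout, while TF and FGB did not pass. The part of these markers in the results was not tested. Of all genes tested, 69.9% passed an adjusted p under 0.05, 32.9% higher and 36.9% lower in the libraries labelled knockout, so a call on a single gene is the common outcome in this comparison.

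Promoter sequence is shown first for the members at both ends of the range, since members that changed most in opposite directions can then be set side by side. They are the 3 largest rises and 3 largest falls among members with 1 entry, at least 50 reads, a RefSeq start within 10 bases of the deposited start and no gene starting head to head within the window. Each sequence is from RefSeq (GRCh38.p14), 5′ to 3′ on the gene's strand, beginning 250 bases before the start and ending before the first exon base of any GENCODE v29 transcript. Capitals mark matches, on either strand, to the ETS core CCGGAAG, which factors of the ETS family bind.
MRPL58: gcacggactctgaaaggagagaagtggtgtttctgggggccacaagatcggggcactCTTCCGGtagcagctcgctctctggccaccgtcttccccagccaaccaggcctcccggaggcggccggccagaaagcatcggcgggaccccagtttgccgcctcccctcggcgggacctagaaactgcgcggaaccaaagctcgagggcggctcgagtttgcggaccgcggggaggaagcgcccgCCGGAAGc
MRPS5: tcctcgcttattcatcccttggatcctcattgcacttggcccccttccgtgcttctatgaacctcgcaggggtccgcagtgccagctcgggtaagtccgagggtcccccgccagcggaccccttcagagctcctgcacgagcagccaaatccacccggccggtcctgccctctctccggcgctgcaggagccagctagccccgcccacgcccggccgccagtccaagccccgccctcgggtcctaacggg
MRPL20: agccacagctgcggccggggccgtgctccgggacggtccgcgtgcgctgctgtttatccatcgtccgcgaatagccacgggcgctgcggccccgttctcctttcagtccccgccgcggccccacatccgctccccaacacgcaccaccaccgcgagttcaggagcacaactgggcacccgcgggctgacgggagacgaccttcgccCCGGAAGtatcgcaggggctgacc
MRPS17: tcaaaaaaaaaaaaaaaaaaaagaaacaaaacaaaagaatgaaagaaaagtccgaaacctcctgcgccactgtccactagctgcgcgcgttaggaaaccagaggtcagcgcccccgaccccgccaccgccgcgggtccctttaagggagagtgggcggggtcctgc
MRPL4: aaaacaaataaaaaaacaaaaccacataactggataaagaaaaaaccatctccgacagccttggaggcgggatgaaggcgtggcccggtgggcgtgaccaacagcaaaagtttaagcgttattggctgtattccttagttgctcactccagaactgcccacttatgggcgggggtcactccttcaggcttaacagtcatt
MRPL42: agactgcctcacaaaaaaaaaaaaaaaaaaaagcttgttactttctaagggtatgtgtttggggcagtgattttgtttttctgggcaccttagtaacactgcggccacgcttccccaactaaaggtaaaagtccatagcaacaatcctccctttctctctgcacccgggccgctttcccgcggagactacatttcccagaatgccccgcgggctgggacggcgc
The windows lie at chr17:75012420-75012669 (plus strand) for MRPL58, chr2:95122004-95122253 (minus strand) for MRPS5, chr1:1407314-1407543 (minus strand) for MRPL20, chr7:55951627-55951792 (plus strand) for MRPS17, chr19:10251701-10251900 (plus strand) for MRPL4 and chr12:93467264-93467487 (plus strand) for MRPL42. The stretch before MRPL58 holds 2 matches and the stretch before MRPL20 holds 1, and the other 4 stretches hold none.

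Taken by symbol, the summed messages of each subunit overlapped between the groups, while single genes rose and fell. Sums by place in the structure, or with subunit proteins of other symbols, were not taken and may differ. The small subunit genes summed to 22963, 22554 and 22836 normalized reads in the control group (libraries A, B, C) and to 23348, 23084 and 22758 in the libraries labelled knockout. The large subunit genes summed to 36770, 37090 and 36638 in control and to 37783, 37263 and 36271 in the libraries labelled knockout. For both subunits library C labelled knockout lay among or under the control libraries, so the groups overlapped.

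The mean of the small subunit sum was 22784 ± 210 in control and 23064 ± 296 in the libraries labelled knockout (SD, n = 3). That of the large subunit was 36833 ± 233 and 37106 ± 768. The small subunit took 38.2% ± 0.351 of the members' reads in control and 38.3% ± 0.194 in the libraries labelled knockout (SD, n = 3), which differ by less than the spread between libraries. All members together made up 0.414% and 0.419% of all normalized reads. In bulk RNA, fewer cells expressing a gene and less of its RNA per cell cannot be told apart.

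**Figure D1:**
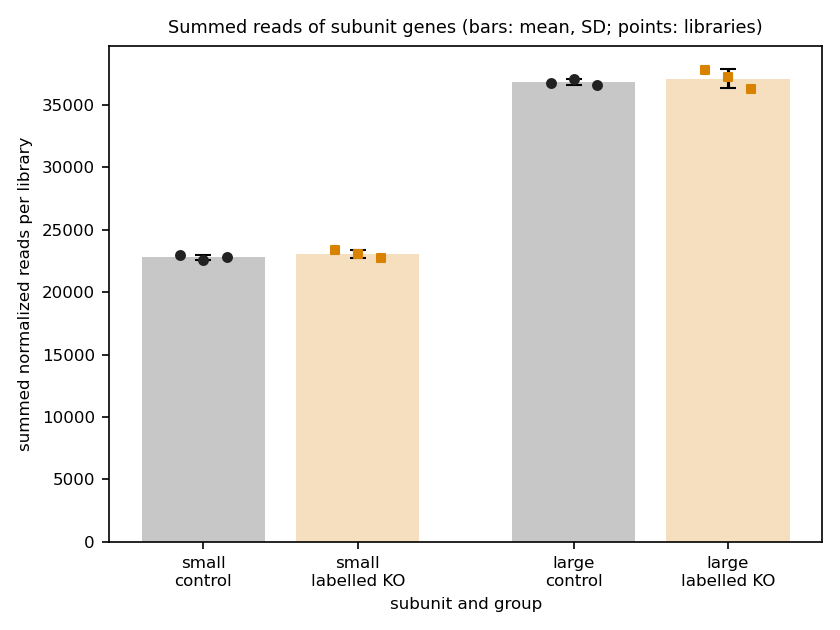
Summed normalized reads of small (MRPS) and large (MRPL) subunit genes, with bars for the mean and SD of 3 libraries and points for the libraries. The small subunit bars stand at 22784 and 23064 and the large subunit bars at 36833 and 37106, with overlapping libraries in both.

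Of the 78 members, 77 had a mean of at least 1 normalized read and were tested. MRPS24, a small subunit protein, was the exception, with 1.28 ± 1.12 in control and no read in any library labelled knockout, both under a floor of 3 reads. By limma with Benjamini-Hochberg adjustment over 14771 genes, 25 members rose, 26 fell and 26 did not pass. The share that passed, 66.2%, lies beside 69.9% of all genes tested, and 78.7% of the 9570 genes with a mean of 100 to 4000, the range of most members (39.4% higher and 39.3% lower). The groups did not overlap in 54 members (70.1%), beside 72.4% of all genes tested and 80.8% of genes in that range.

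The changes were small in size. The median log2 change of the members was −0.02, beside −0.04 over all genes tested. Its median size without sign was 0.23, beside 0.47 over all genes and 0.38 over genes with a mean of 100 to 4000. A log2 change beyond 1 in either direction was seen in 4 members (5.2%). The share was 24.3% of all genes tested and 14.5% of genes with a mean of 100 to 4000. All 4 members also passed the test, which 22.1% of all genes did with a change of that size. Among the 70 members with 1 entry and at least 50 reads, 2 (2.9%) had such a change. Among members with a mean of at least 100, the median coefficient of variation between libraries was 3.98% in control (71 genes) and 4.13% in the libraries labelled knockout (72 genes).

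The subunits gave similar counts. Of 28 small subunit genes tested, 10 rose, 8 fell and 10 did not pass, with a median log2 change of 0.03. Of 49 large subunit genes, 15 rose, 18 fell and 16 did not pass, with a median of −0.06. Structures of the mammalian mitoribosome place the products of MRPS18A and MRPS30 in the large subunit and do not hold MRPS36, and with those assignments 9 of 25 small subunit genes rose and 8 fell, while 16 of 51 large subunit genes rose and 18 fell. The medians were then 0.06 and −0.06.

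**Figure D2:**
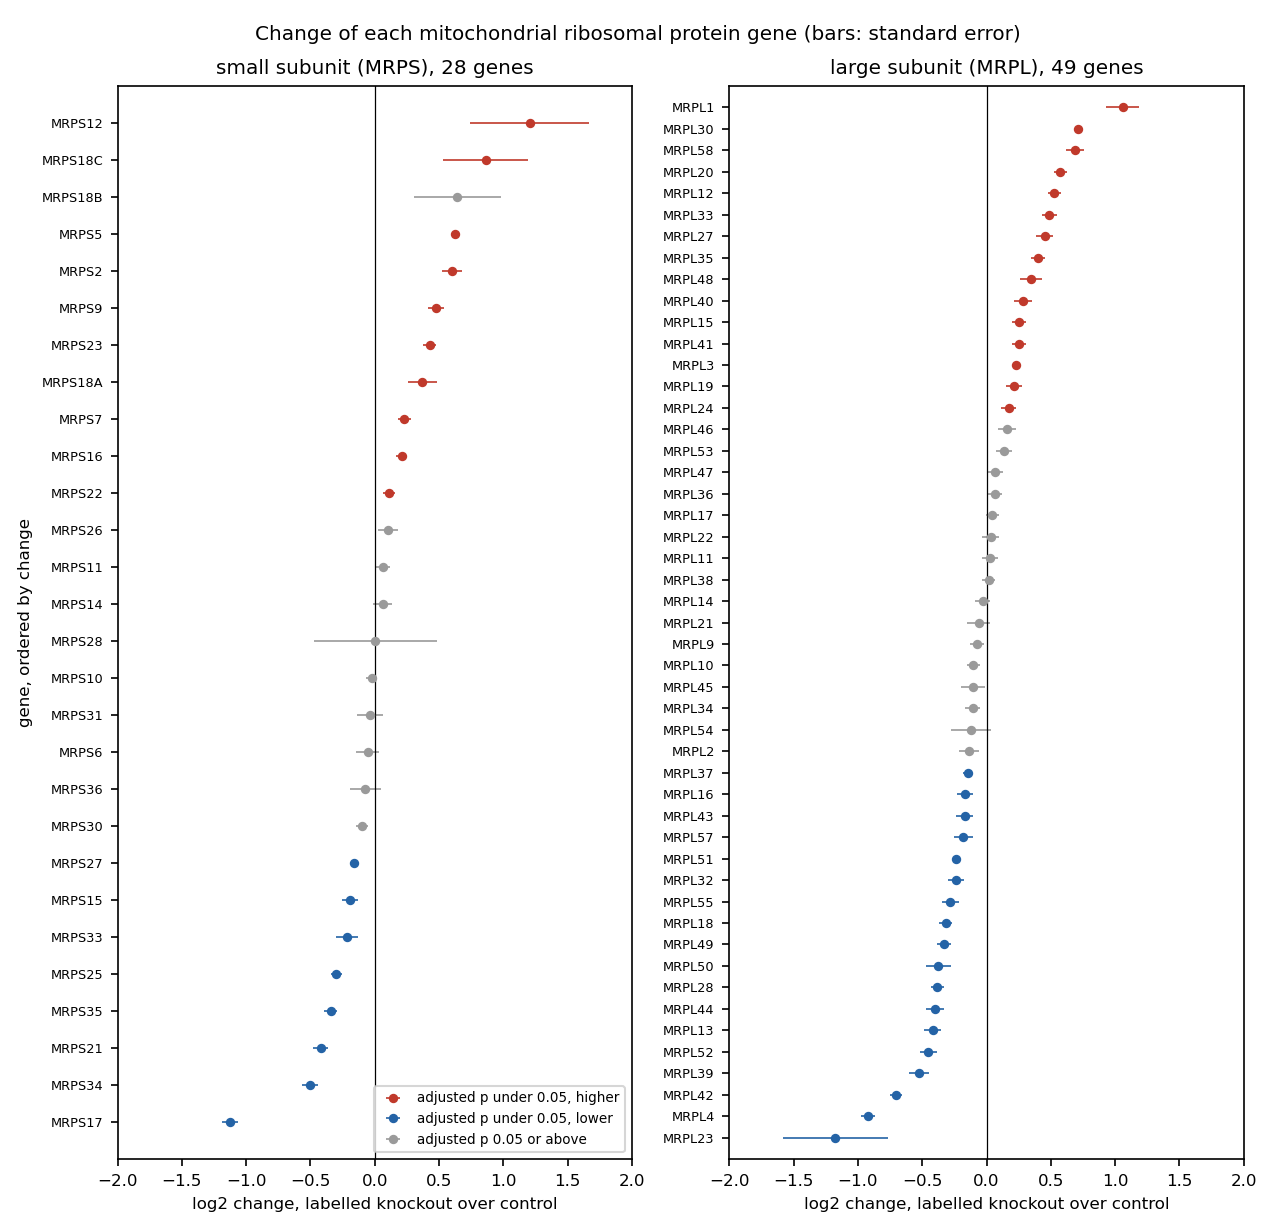
Log2 change of each of the 77 tested members, libraries labelled knockout over control, with limma's standard error, for small (left) and large (right) subunit symbols. Red and blue points passed an adjusted p under 0.05, and the wide bars belong to MRPS12, MRPS18C, MRPS18B, MRPS28 and MRPL23, all with means under 30 reads.

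In the small subunit, the largest rises among well-covered genes were those of MRPS5, MRPS2, MRPS9, MRPS23 and MRPS18A. MRPS5, the counterpart of a bacterial protein at the channel where the message enters (chromosome 2, 95085369 to 95122003), had 1961, 1950 and 1908 normalized reads in control and 3019, 2974 and 2982 in the libraries labelled knockout. All 3 libraries labelled knockout lay above all 3 of control, with means of 1939 ± 28.0 and 2992 ± 23.8 and a change of 0.63 on the log2 scale (SE 0.03, adjusted p = 1.94e-10 by limma). MRPS2, another protein of bacterial descent, had 381, 355 and 391 reads in control and 530, 551 and 637 in the libraries labelled knockout, a change of 0.60 on the log2 scale (SE 0.08, adjusted p = 5.65e-06 by limma). Its highest value was in library C, and the groups did not overlap.

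MRPS9 (chromosome 2, 105037469 to 105099960), whose bacterial counterpart contacts the transfer RNA in the peptidyl site, rose from 416 ± 17.5 to 580 ± 19.7 normalized reads. MRPS23, a mitochondria-specific component, rose from 593 ± 19.4 to 797 ± 23.9. MRPS18A rose from 236 ± 39.0 to 302 ± 2.19, a log2 change of 0.37, with control library A at 191 and the other control libraries at 263 and 253. Without control library A the change was 0.23. Of MRPS18A's exon bases, 47.0% are shared with other genes on either strand in GENCODE v29, with RSPH9 as the coding partner.

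Falls in the small subunit were led by MRPS17, which binds the small subunit rRNA (chromosome 7, 55951877 to 55956500). It had 679, 654 and 700 normalized reads in control and 311, 318 and 301 in the libraries labelled knockout. These were less than 50% of every control value, and the means of 678 ± 23.1 and 310 ± 8.36 gave a change of −1.13 on the log2 scale (SE 0.06, adjusted p = 5.75e-10 by limma). Of its exon bases, 27.0% are shared on the same strand with other genes, NIPSNAP2 among them. MRPS34, a mitochondria-specific protein needed for a stable small subunit (chromosome 16, 1771895 to 1773134), had 581, 599 and 562 reads in control and 400, 407 and 421 in the libraries labelled knockout, a change of −0.50 on the log2 scale (SE 0.06, adjusted p = 3.41e-06 by limma). The 2 sets of libraries were far apart for both genes relative to the differences within a set.

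MRPS21, of bacterial descent, fell from 852 ± 56.4 to 636 ± 20.1 normalized reads. MRPS35 and MRPS25, both mitochondria-specific, fell from 1382 ± 43.2 to 1091 ± 66.6 and from 1842 ± 84.2 to 1496 ± 44.0. MRPS5 is also among the 3 most abundant small subunit messages, and the other two changed less than it did. MRPS27, a pentatricopeptide repeat protein, had 3856, 3862 and 3855 reads in control and 3472, 3476 and 3401 in the libraries labelled knockout, and fell by 0.16 on the log2 scale (SE 0.03, limma adjusted p = 0.000127). MRPS16, whose loss in people impairs mitochondrial translation, rose from 2053 ± 62.7 to 2372 ± 102.

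In the large subunit, MRPL1, part of the flexible stalk beside the exit site (chromosome 4, 77862680 to 77952790), had 94.3, 77.1 and 92.3 normalized reads in control and 181, 183 and 187 in the libraries labelled knockout. Its log2 change of 1.06 (SE 0.13, limma adjusted p = 2.67e-06) was the largest rise among members with at least 50 reads, and its control level per length was the lowest among well-covered large subunit genes. MRPL30, of bacterial descent (chromosome 2, 99181184 to 99199561), had 1399, 1515 and 1446 reads in control and 2400, 2349 and 2408 in the libraries labelled knockout, a change of 0.72 on the log2 scale (SE 0.04, adjusted p = 3.64e-10 by limma). For both genes every library labelled knockout exceeded every control library by more than 50% of the control value.

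MRPL58, also called ICT1, is a peptidyl-tRNA hydrolase built into the ribosome that can free stalled complexes (chromosome 17, 75012670 to 75021261). It had 296, 305 and 311 normalized reads in control and 506, 505 and 459 in the libraries labelled knockout, a change of 0.69 on the log2 scale (SE 0.07, adjusted p = 5.88e-07 by limma). Library C labelled knockout was the lowest of its group and still above each control library. MRPL20, a protein of bacterial descent that binds rRNA early in assembly, rose from 550 ± 12.9 to 818 ± 7.16. MRPL12, which forms the stalk that recruits translation factors (chromosome 17, 81703367 to 81707517), rose from 1391 ± 52.3 to 2008 ± 133. Of MRPL12's exon bases, 68.2% are shared on the same strand with an overlapping annotated gene, so the reads of the pair cannot be told apart.

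The falls of the large subunit were led by MRPL4, which lines the tunnel through which the new chain leaves (chromosome 19, 10251951 to 10260055). It had 928, 954 and 943 normalized reads in control and 482, 534 and 474 in the libraries labelled knockout, a change of −0.92 on the log2 scale (SE 0.06, adjusted p = 2.06e-09 by limma). MRPL42, a mitochondria-specific component (chromosome 12, 93467514 to 93516214), had 1702, 1643 and 1516 reads in control and 966, 1034 and 981 in the libraries labelled knockout, a change of −0.70 on the log2 scale (SE 0.05, adjusted p = 7.44e-09 by limma). The highest value labelled knockout, 1034, was well under the lowest control value, 1516. MRPL39 fell from 474 ± 18.8 to 329 ± 25.5, MRPL52 from 555 ± 23.7 to 405 ± 10.3 and MRPL13 from 725 ± 35.6 to 543 ± 39.0.

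Of the abundant large subunit messages, MRPL3, which reaches toward the peptidyl transferase centre, rose from 2148 ± 66.5 to 2518 ± 20.1 normalized reads, a log2 change of 0.23. MRPL37, a mitochondria-specific protein, fell from 1978 ± 9.51 to 1787 ± 17.7, a log2 change of −0.15. MRPS30, a large subunit protein despite its symbol, had 1311, 1318 and 1223 reads in control and 1215, 1211 and 1170 in the libraries labelled knockout. Its groups did not overlap, but the limma adjusted p was 0.0604, and without control library C it was 0.0181 (range over the alternatives 0.0181 to 0.173). MRPS36, now known as a component of the 2-oxoglutarate dehydrogenase complex, averaged 180 ± 24.8 and 170 ± 14.2 with overlapping groups.

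**Figure D3:**
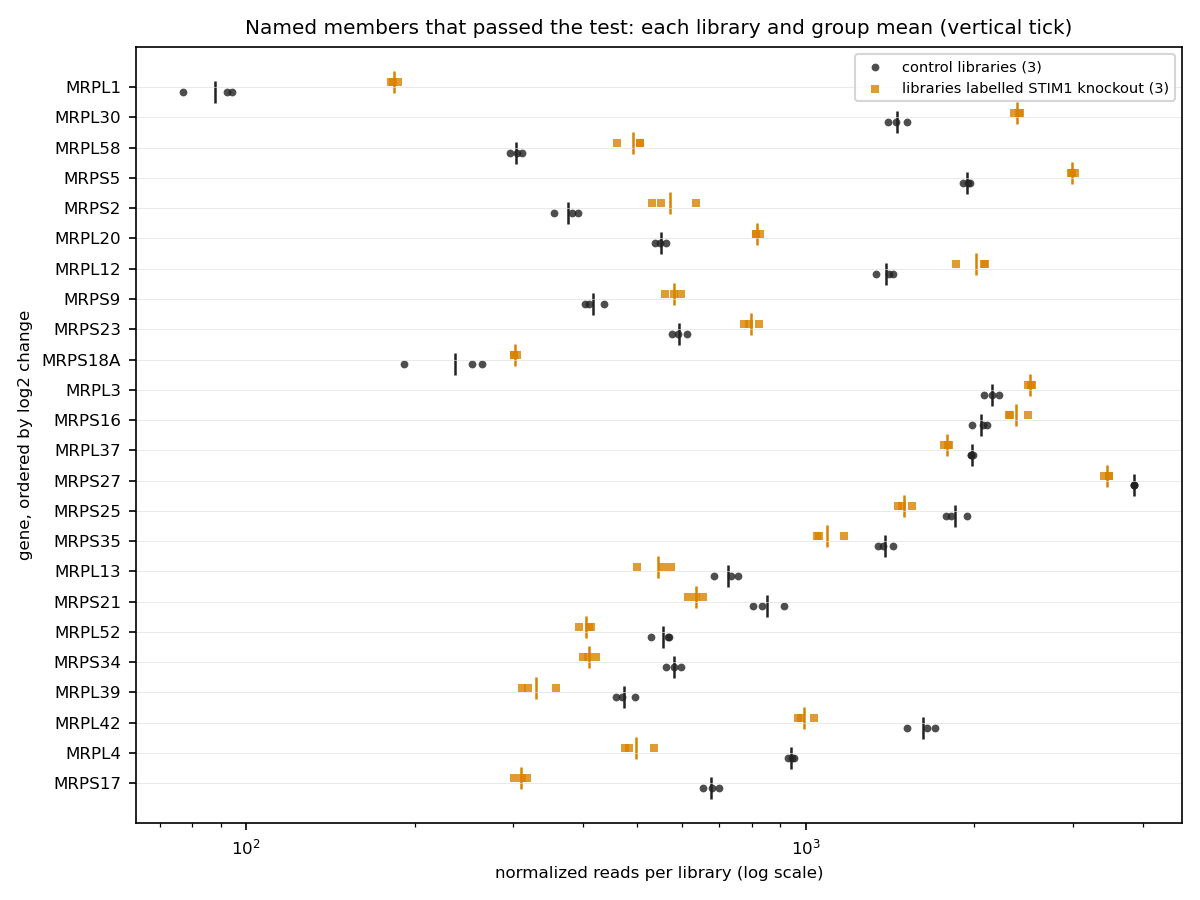
Normalized reads per library, on a log axis, of the 24 named members that passed the test and reached 50 reads, ordered by log2 change, with circles for control, squares for libraries labelled knockout and ticks for group means. MRPL1 at the top has group means of 87.9 and 183 reads, and MRPS17 at the bottom 678 and 310. The groups do not overlap in any of the 24 genes, which were kept because they passed. Without that choice the share was 70.1% of members tested and 72.4% of all genes tested.

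A few members had too few reads, or reads divided between entries, for a firm value. MRPS12, the counterpart of a bacterial decoding-site protein, had 2 entries and averaged 3.12 ± 1.18 and 8.69 ± 3.30 normalized reads. MRPS18C and MRPS18B, paralogs of MRPS18A in the small subunit, averaged 14.6 ± 5.01 and 26.8 ± 7.35, and, over 7 entries, 12.2 ± 4.55 and 19.2 ± 4.75. MRPL23 had 2 entries and averaged 15.4 ± 4.21 and 6.68 ± 3.68. These levels rest on few reads, whatever the size of the log2 change.

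By limma MRPS12 (adjusted p = 0.0300), MRPS18C (adjusted p = 0.0301) and MRPL23 (adjusted p = 0.0188) passed, and each lost the call when particular libraries were left out. MRPS12 lost it without control library B or C, or without library A or C labelled knockout, MRPS18C without control library A (log2 change 0.56 in place of 0.86) or library B labelled knockout, and MRPL23 without control library A or library C labelled knockout. MRPS18B did not pass (adjusted p = 0.107) and passed by limma without control library B (adjusted p = 0.0392, range over the alternatives 0.0392 to 0.708). MRPL45 kept nearly all its reads on an alternate sequence, 380 and 353, against 4.41 and 3.03 on the main chromosome, and the sum of its entries did not pass. MRPS28 averaged 6.81 ± 4.04 and 6.64 ± 2.99. Without the members of more than 1 entry or under 50 reads, 23 of 70 rose and 25 fell.

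How members overlap other genes touches many values, because the strand setting of the counting is not given in the sources used here. Only 34 of the 70 well-covered members share no exon base with another gene of GENCODE v29 on either strand. Of these 34, 11 rose, 12 fell and 11 did not pass, with a median log2 change of −0.03. MRPL4, for example, shares 21.4% of its exon bases with genes on the opposite strand, MRPS25 22.2% and MRPL51 31.3%.

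Per kilobase of the length deposited for each gene, members spread widely. Among 23 well-covered small subunit genes the median level was 479 normalized reads per kilobase in control and 402 in the libraries labelled knockout. The lowest was MRPS33 (75.9 in control) and the highest MRPS27 (1372). Among 47 large subunit genes the medians were 418 and 431, and the control levels ran from 55.1 for MRPL1 to 2176 for MRPL51. In the libraries labelled knockout the lowest large subunit level was that of MRPL42 (63.4) and the highest that of MRPL12 (1991). MRPL42 has the longest deposited length of the members, 15665 bases, and averaged 994 normalized reads there, so its low level per kilobase reflects that length.

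Proteins inherited from bacteria and those specific to mitochondria gave different counts. Of all genes tested 32.9% rose and 36.9% fell, and of genes with a mean of 100 to 4000 the shares were 39.4% and 39.3%. Left out are 4 tested members that were not classed. The 5 mitoribosomal proteins known by other symbols, described below, are not in either class. Of those 5, 3 rose, all of them small subunit proteins, and 0 fell, so counts that include them may differ. Of 44 members with a bacterial counterpart, 18 rose (40.9%), 10 fell (22.7%) and 16 did not pass, with a median log2 change of 0.05. Of 29 mitochondria-specific members, 6 rose (20.7%), 15 fell (51.7%) and 8 did not pass, with a median of −0.15. Among members, which all have an MRP symbol, the same order held in each subunit by structure. Among large subunit genes 11 of 29 with a bacterial counterpart rose and 7 fell, against 4 and 10 of 20 mitochondria-specific genes. Among small subunit genes 7 of 15 rose and 3 fell, against 2 and 5 of 9. In well-covered members the counts were 16 rising and 9 falling of 40, against 6 and 15 of 28. The classes were read from known structures with earlier results of these data at hand, and the difference between them was not tested.

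The summed levels of these classes also parted. Genes with a bacterial counterpart summed to 33750, 33635 and 33685 normalized reads in control and to 37502, 36713 and 36083 in the libraries labelled knockout. Mitochondria-specific genes summed to 25203, 25081 and 24903 in control and to 22774, 22803 and 22085 in the libraries labelled knockout. Neither pair of groups overlapped, and the classes moved in opposite directions. These sums rest on the same genes as the counts. They leave out the 5 mitoribosomal proteins known by other symbols, and sums that include those may differ. The difference between the classes was not tested. Of the bacterial class, MRPS5, MRPL30 and MRPL12 made up 2602 reads of the difference of the means, and without them the groups overlapped, at 28906 ± 148 and 29380 ± 582. Without MRPL42, MRPS27 and MRPS25 the mitochondria-specific sums were 17742 ± 29.4 and 16615 ± 345, still with no overlap.

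Members were set beside the genes around them on the chromosome. For each member the median log2 change of the 10 tested genes on either side was taken, leaving other members out. Over 77 members the member's own change and this median had a Pearson r of 0.56 and a Spearman rho of 0.59, and over 9495 other genes with a mean of 100 to 4000 these were 0.25 and 0.39. The points share all 6 libraries, and members near each other share neighbours, so these are descriptions. Over all 77 members, 52 (67.5%) had the sign of their neighbours' median, beside 65.5% of those other genes. Of the 51 that passed, 42 (82.4%) had it, beside 68.5% of the 7485 other genes that passed. The difference between these shares was not tested.

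Of 15 members whose neighbours had a median above 0.25, 9 rose and 2 fell. Of 14 whose neighbours were under −0.25, 1 rose and 11 fell, and of the 48 between, 15 rose and 13 fell. Other genes were not counted in these classes, and they too shared their neighbours' sign in most cases (65.5%). These counts are therefore not shown to be particular to the members. MRPS5 lay among the most raised neighbours, with a median of 1.12 and 19 of 20 higher. MRPL4 lay among lowered ones, with a median of −0.98 and 3 of 20 higher, and MRPL13 at −1.08. MRPS17 and MRPS34 had neighbours at −0.47 and −0.56. MRPL42 (log2 change −0.70) and MRPL39 (−0.53) had neighbours with medians of −0.16 and −0.10. JAM2, beside MRPL39, had a log2 change of 1.15 but did not pass (limma adjusted p = 0.0696).

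**Figure D4:**
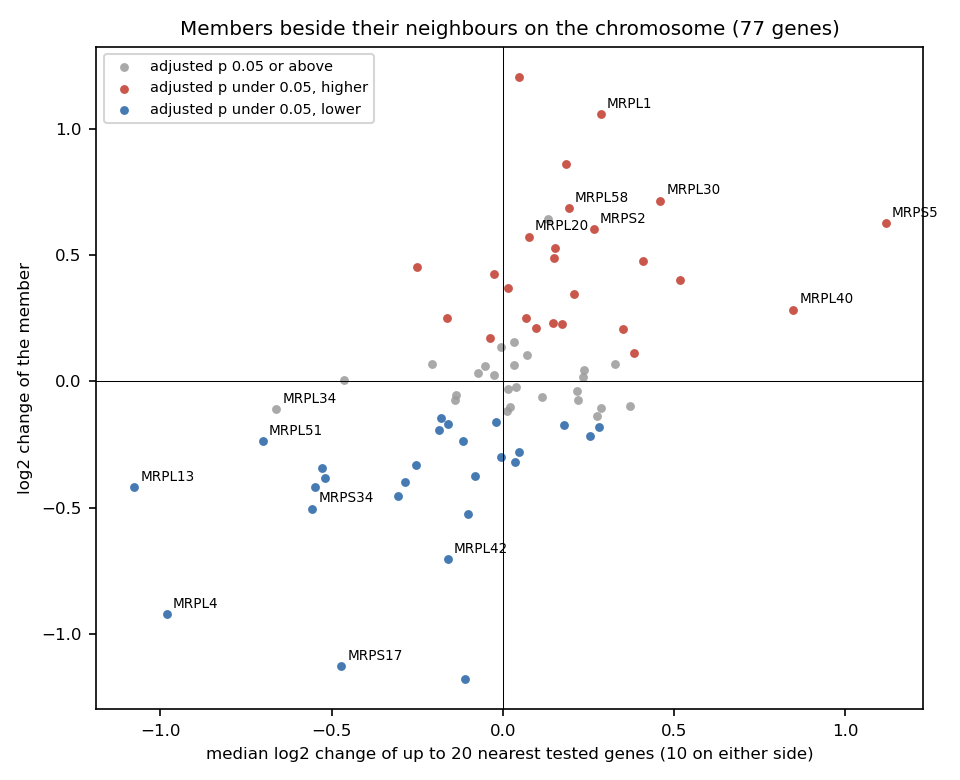
Log2 change of each tested member against the median log2 change of up to 20 neighbouring tested genes, coloured by call. Of the 77 points, 52 lie in the lower left or upper right, with MRPS5 at a neighbour median of 1.12, MRPL4 at −0.98 and MRPL13 at −1.08.

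On chromosome 2, 6 of 8 members rose. Along it, MRPL33 (0.49), MRPL53 (0.14, not passed), MRPL19 (0.21), MRPL35 (0.40), MRPS5 (0.63), MRPL30 (0.72) and MRPS9 (0.48) all had log2 changes above 0, while MRPL44, beyond them all at 223950846 to 223967714, fell by 0.40. This run was picked after its values were seen. The median of the other 988 tested genes of that chromosome was 0.04. On chromosome 17, 5 of 8 members rose and 0 fell, with a median member change of 0.33 beside 0.10 for 900 other genes. All 3 members on chromosome 12 fell, beside a median of −0.25 for its other genes, as did both on chromosome 16, beside −0.30, and all 3 tested on chromosome 7, beside 0.12, where MRPS24 was not tested. The chromosomes named here are among those where most members shared a direction. Of all genes tested 32.9% rose and 36.9% fell. The share of other genes that rose or fell was not counted for any chromosome, and no chromosome was tested. MRPS33 of chromosome 7 (limma adjusted p = 0.0358, range over the alternatives 0.00800 to 0.130) kept its call only without library B labelled knockout when 1 library was left out, and did not pass in the authors' deposited table.

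Many members sit head to head with another gene. A gene starting within 1000 bases on the opposite strand was found for 29 of 77 members (37.7%), beside 15.8% of 14598 other tested genes. These make 28 different pairs, as MRPS11 and MRPL46 are each other's partner, and in 17 pairs the log2 changes had the same sign, whether or not they passed. The genes of this pair, one of each subunit, start 320 bases apart, and neither passed, with log2 changes of 0.07 and 0.16. MRPL36 starts 25 bases from NDUFS6, a complex I subunit, with log2 changes of 0.07 and 0.43. MRPL43 and TWNK, the mitochondrial DNA helicase, start 29 bases apart and had changes of opposite sign, −0.17 and 0.53. MRPL43 passed by limma (adjusted p = 0.0360) although its groups overlapped, and it lost the call without any 1 of the control libraries or library B or C labelled knockout (range over the alternatives 0.00418 to 0.172).

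RefSeq promoters of 300 bases, 250 before and 50 after the start, were matched for 69 members. For a member, the promoter nearest its deposited start on its chromosome was taken. For any other gene the first promoter listed was taken, without such matching, and what this does to the shares was not tested. The ETS core CCGGAAG was found on either strand in the promoters of 29 of the 69 members (42.0%), beside 17.2% of 11674 other tested genes and 10.6% of all 27236 other promoters. It was held by 14 of 23 members that rose, 8 of 24 that fell and 7 of 21 that did not pass. Other genes were not counted by call for any motif, and differences between the calls were not tested. ATGGCGGC, a form of the YY1 site, was found in 19 (27.5%), beside 5.55% of other tested genes, and AAGATGG, another form, in 23 (33.3%), beside 6.95%. The YY1 forms can overlap where both are present, and at least 1 was held by 31 members. They were held by 9 of 23 that rose, 9 of 24 that fell and 12 of 21 that did not pass.

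Most YY1 matches lay after the start, with 17 the median position of ATGGCGGC. The NRF1 motif was found in 8 promoters (11.6%), beside 10.5% of other tested genes, and the palindromic E-box CACGTG in 7 (10.1%), beside 9.68%. Shares near the background say nothing particular of the members. A match is a stretch of letters and not a bound site.

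**Figure D5:**
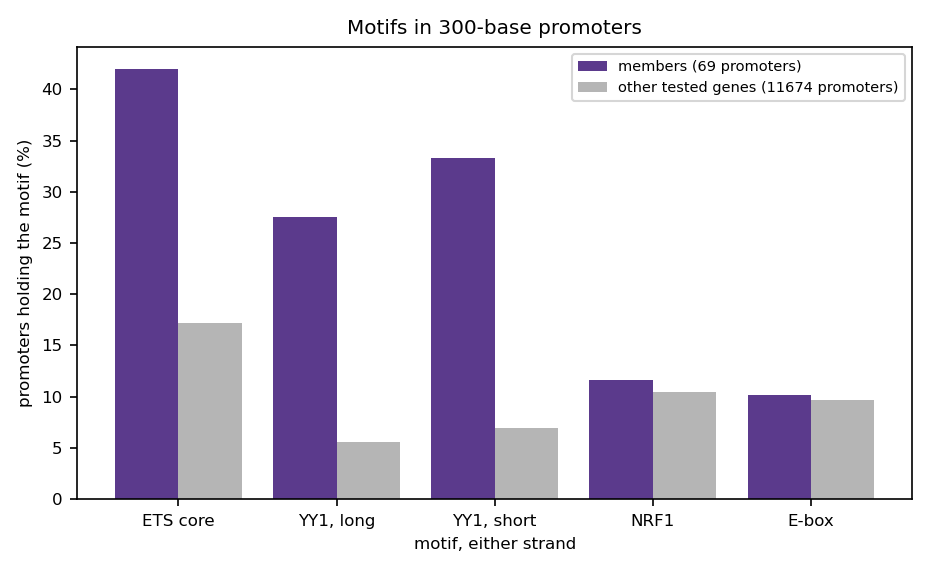
Percentage of 300-base promoters holding each motif on either strand, for 69 members (promoter nearest the deposited start) and 11674 other tested genes (first promoter listed). The ETS core stands at 42.0% against 17.2% and the long and short YY1 forms at 27.5% against 5.55% and 33.3% against 6.95%, while NRF1 and E-box bars are of near equal height.

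The messages of factors that bind these motifs did not move together. GABPA, the DNA-binding ETS subunit of GA-binding protein, fell from 813 ± 31.6 to 459 ± 27.2 normalized reads, a change of −0.83 on the log2 scale (SE 0.06, adjusted p = 1.42e-08 by limma). Its partner subunit GABPB1 rose from 435 ± 12.7 to 677 ± 48.1. YY1 averaged 2443 ± 145 and 2560 ± 94.1, and MYC 4326 ± 125 and 4400 ± 155. NRF1 had 316, 296 and 299 reads in control and 308, 338 and 366 in the libraries labelled knockout, and none of these 3 passed. PPARGC1A, the coactivator that drives mitochondrial biogenesis, had 346, 336 and 340 reads in control and 1166, 1156 and 1117 in the libraries labelled knockout, a change of 1.75 on the log2 scale (SE 0.05, adjusted p = 6.04e-13 by limma). The related PPARGC1B rose from 414 ± 13.5 to 750 ± 48.7. Of 10 such regulators 4 rose (40%), 2 fell (20%) and 4 did not pass, beside 32.9% and 36.9% of all genes tested that rose and fell.

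Among the 5 mitoribosomal proteins known by other symbols 3 rose (60%) and 0 fell, beside 32.9% and 36.9% of all genes tested. PTCD3, a pentatricopeptide repeat protein of the small subunit, rose from 2014 ± 63.8 to 2495 ± 97.7 normalized reads. CHCHD1 rose from 607 ± 21.1 to 799 ± 33.5 and AURKAIP1 from 714 ± 17.7 to 820 ± 48.5, both small subunit proteins. DAP3, a GTP-binding small subunit protein, had 2738, 2550 and 2706 reads in control and 2814, 2758 and 2857 in the libraries labelled knockout. GADD45GIP1, of the large subunit, averaged 675 ± 18.7 and 644 ± 27.3, and neither gene passed.

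Genes that build and use the ribosome were as mixed. Of 28 assembly factors 9 rose (32.1%) and 8 fell (28.6%), beside 32.9% and 36.9% of all genes tested. Their median log2 change was 0.05. NGRN, needed for large subunit rRNA, rose from 1277 ± 37.4 to 2112 ± 85.1, while RPUSD3, a pseudouridine synthase, fell from 1056 ± 4.31 to 642 ± 23.2. C1QBP rose from 3160 ± 97.1 to 4102 ± 101.

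Of 16 translation factors 6 rose (37.5%) and 5 fell (31.25%), beside 32.9% and 36.9% of all genes tested. TUFM, the elongation factor that delivers charged transfer RNA, had 4562, 4569 and 4299 reads in control and 2822, 2690 and 2761 in the libraries labelled knockout, a change of −0.70 on the log2 scale (SE 0.03, adjusted p = 9.66e-11 by limma). GFM1, the translocation factor, rose from 1661 ± 40.3 to 2401 ± 108, and the rescue factor MTRFR fell from 797 ± 22.7 to 455 ± 13.7. The elongation factors thus had changes of opposite sign.

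Of 19 genes of mitochondrial transcription and RNA processing 9 rose (47.4%) and 5 fell (26.3%), beside 32.9% and 36.9% of all genes tested. HSD17B10, a subunit of mitochondrial RNase P, rose from 1658 ± 16.6 to 2756 ± 81.8, and SUPV3L1, an RNA helicase, from 975 ± 18.2 to 1448 ± 11.2. TBRG4, an RNA-binding protein, fell from 2873 ± 113 to 2159 ± 21.5. TFAM, which packages mitochondrial DNA and starts its transcription, rose from 1367 ± 72.7 to 1925 ± 75.4.

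The mitochondrial aminoacyl-tRNA synthetases and amidotransferase subunits, which charge transfer RNA, counted 2 rises (10%) and 9 falls (45%) among 20. Of all genes tested 32.9% rose and 36.9% fell, and the difference was not tested. TARS2, for threonine, had 1939, 2001 and 1986 reads in control and 890, 840 and 845 in the libraries labelled knockout, a change of −1.20 on the log2 scale (SE 0.04, adjusted p = 2.32e-12 by limma). CARS2, for cysteine, had 736, 744 and 780 reads in control and 1493, 1471 and 1510 in the libraries labelled knockout, and rose. GATB, an amidotransferase subunit, fell from 544 ± 18.5 to 339 ± 31.7. The median log2 change of this list was −0.13, beside −0.04 over all genes tested.

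The nearest large families showed comparable counts. Of all genes tested 32.9% rose and 36.9% fell. Of 81 nuclear subunits of the respiratory chain 25 rose (30.9%) and 30 fell (37.0%), with a median log2 change of 0.01. NDUFA7 of complex I, ATP5F1D of the ATP synthase and UQCR11 of complex III had the smallest p. NDUFA7 fell from 444 ± 24.1 to 124 ± 5.57, ATP5F1D from 1095 ± 16.3 to 531 ± 25.4 and UQCR11 from 1106 ± 37.9 to 444 ± 41.1. Of 85 cytosolic ribosomal proteins 30 rose (35.3%) and 36 fell (42.4%), with a median of −0.04. In size without sign, the median log2 change was 0.26 in the respiratory chain list and 0.27 in the cytosolic ribosomal list, beside 0.23 in the mitochondrial ribosomal proteins. The mitochondrially encoded messages and rRNAs were not analysed here.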

How the data were processed

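The members and lists were chosen with earlier results of these data known. The deposited signal of each gene is, per the file headers, a mean over each group of read counts that the authors divided by size factors, with no value per library. Beside it the authors deposited the fold (ratio) of these means, its log2 value, and a p-value, raw and adjusted. The submitters' processing notes name the mouse builds GRCm38 and mm10. The table's chromosome accessions are human (GRCh38), the build of all coordinates here. The aligner and counting tool are not given in the sources used here. Per the labels' protocols, RNA came from an RNeasy kit and libraries from a SMARTER mRNA-Seq kit.

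The means carry 15 digits, from which whole reads per library were recovered for all 17381 entries. Recomputed means differed from the deposited ones by at most 2.9e-10, and for 1 entry in each group several sets of reads matched. Without molecular identifiers in the PCR reads, the floor of 3 reads covers counting error only. Entries of a name were summed, and genes averaging 1 normalized read or more were tested with limma 3.58.1 (R 4.3.3) on log2(normalized count + 1), with a trended variance prior and Benjamini-Hochberg adjusted p-values at a threshold of 0.05. On this scale changes of low genes are understated. The procedure was tested on simulated data. "Rose" and "fell" mean an adjusted p under 0.05.

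Named members are the 5 largest rises and 5 largest falls by symbol class among members that passed with a mean of at least 50, the 3 most abundant of each class, members with several entries, and MRPS18A, MRPS18B, MRPS18C, MRPS30, MRPS36, MRPS12, MRPL12 and MRPL58. Of other lists the 3 genes of smallest p are named, and STIM1. Other names were chosen after their values were seen. No protein sequences were used.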

Additional observations from a re-analysis of the deposited data

How the results depend on the processing

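Members that rose numbered 21 to 27 and members that fell 21 to 26 over the alternatives, which were the low-value filter, pseudocounts of 0.5 and 5, voom values of the recovered reads, other scalings, main-chromosome entries only, no variance trend, a threshold of 0.01, the authors' deposited table and each library left out. Subunit medians kept their sign, from 0.00 to 0.08 for the small and from −0.08 to −0.01 for the large subunit. Of 51 members that passed, 41 passed with each library left out, all 51 kept their direction there, and the authors' deposited table called 43. The neighbour correlation of 0.557 was 0.586 with a pseudocount of 5, 0.568 with main-chromosome entries only, 0.583 with the authors' deposited table, 0.565 with 25 genes on either side, and 0.524 to 0.571 with a library left out. With a library left out, MRPS36 had log2 changes from −0.136 to 0.0360, the latter, without control library B, of the other sign. MRPS18A did not pass without the variance trend (limma adjusted p = 0.0539, range 0.00141 to 0.0539). Biogenesis regulators that fell numbered 1, not 2, under 8 alternatives. The 25-gene window and the restriction to members with 1 entry and 50 reads were chosen after seeing the data. Scaling by total reads moved the median of all genes by 0.01 and by the upper quartile by 0.02 (log2). No paired analysis was possible because the table gives group means and recovered libraries carry no replicate number. Members under 30 reads are limited by depth. The other causes were not tested.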
